A study of Drosophila melanogaster with 3 samples.

Results

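Peaks of the transcription factor fusion CG4617-eGFP were examined at lone genes with alternative promoters, that is, at protein-coding genes whose annotated transcription start sites (TSSs) lie more than 1000 bp apart. A peak was a member when its summit was at most 500 bp from the TSS of a protein-coding gene, when no TSS of a head-to-head gene pair lay within 500 bp of the summit, and when the gene of the nearest TSS had such distant starts. A head-to-head pair is made of neighbouring genes on opposite strands whose starts face away from each other, at most 1000 bp apart. There were 570 member peaks among 5558 peaks in all (10.3%), or 12.6% of the 4532 peaks at promoters, and they belonged to 445 genes. The other promoter peaks were 2338 at head-to-head pairs and 1624 at lone genes whose starts all lie within 1000 bp, called single-start genes here. A further 1026 peaks lay away from promoters.

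The data came from chromatin immunoprecipitation and sequencing (ChIP-seq) of whole Drosophila melanogaster embryos aged 0 to 24 hours, males and females together. The flies were 1 transgenic line with GFP attached to the C terminus of CG4617, and the antibody recognised GFP. All 3 biological replicates, which the labels list as separate biosamples, belong to 1 group, and no untreated or tag-free group is among them. The antibody therefore reports the tagged protein in a mixture of all embryonic cell types and stages, so a start bound in few cells and a start bound weakly in many cannot be told apart. The values below are the authors' deposited regions and their signal, a height on an unstated scale that serves only to rank regions within a list, and read depth is unknown.

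Many fly genes can begin transcription at more than 1 promoter, and the choice sets the leader, and at times the N terminus, of the product and often the tissue or stage in which it is made. Fly core promoters fall into classes with different sequence elements. The DNA replication-related element (DRE), which DREF binds, Motif 1, which M1BP binds, and Ohler motif 7 are known from promoters of widely expressed genes, while the TATA box and the initiator are known from promoters of regulated genes. GAGA repeats are bound by the GAGA factor, and E-boxes by basic helix-loop-helix proteins.

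The sequences of 5 start regions, chosen with their letters known, illustrate the motif matches that are counted below. Each is the 100 bases just upstream of a TSS, the one nearest the summit at a start with a peak and the most upstream one at a start without, written 5′ to 3′ on the gene's strand from the Release 6 genome (dm6) as held by RefSeq. None overlaps an annotated exon. Capitals mark a match on either strand to the DRE (TATCGATA), the Motif 1 core (GGTCACACT), Ohler motif 7 or an E-box (CAGCTG). The rhea start holds a DRE, the Pi3K21B first start holds Ohler motif 7 and the Cadps last start holds a DRE, while the other starts of rhea and Pi3K21B shown hold none of the 4. Other starts go the other way. The same window holds none of the 4 at the first starts of csw, moody, elav, CG13921 and Cadps, which have a peak, while it holds a Motif 1 core at the dlg1 first start and a DRE at start 2 of the gene for, which have none.
rhea first start, with a peak, chr3L:8544901-8545000, plus strand: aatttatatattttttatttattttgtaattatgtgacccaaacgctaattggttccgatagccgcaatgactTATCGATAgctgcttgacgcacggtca
rhea next start, no peak, chr3L:8546575-8546674, plus strand: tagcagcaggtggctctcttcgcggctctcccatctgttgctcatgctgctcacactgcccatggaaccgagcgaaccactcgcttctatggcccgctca
Pi3K21B first start, with a peak, chr2L:297780-297879, plus strand: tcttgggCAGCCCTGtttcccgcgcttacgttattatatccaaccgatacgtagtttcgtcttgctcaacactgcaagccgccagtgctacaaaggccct
Pi3K21B last start, no peak, chr2L:301606-301705, plus strand: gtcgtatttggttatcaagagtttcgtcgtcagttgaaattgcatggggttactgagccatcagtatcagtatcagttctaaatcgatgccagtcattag
Cadps last start, with a peak, chr4:1231783-1231882, plus strand: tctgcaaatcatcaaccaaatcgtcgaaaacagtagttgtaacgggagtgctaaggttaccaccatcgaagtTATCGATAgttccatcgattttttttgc

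Strong peaks at later starts are shown next, because several held no such letters. The 4 sequences are the 101 bases centred on the summit of the strongest member peak of 4 genes, each peak assigned to an internal or last start and lying between annotated starts of its gene. None overlaps an annotated exon, and none holds any of the 4 motifs marked above. They were chosen with their letters known, and the summit windows of the first-start peaks of moody, CG13921 and elav also hold none of the 4.
ph-p, summit of the last start, chrX:2137280-2137380, minus strand: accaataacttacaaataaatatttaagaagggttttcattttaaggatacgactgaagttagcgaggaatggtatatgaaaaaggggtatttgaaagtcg
larp, summit of the last start, chr3R:28326533-28326633, minus strand: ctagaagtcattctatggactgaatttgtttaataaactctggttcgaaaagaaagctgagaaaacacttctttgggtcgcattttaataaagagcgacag
Rtnl1, summit of the next to last start, chr2L:4997632-4997732, minus strand: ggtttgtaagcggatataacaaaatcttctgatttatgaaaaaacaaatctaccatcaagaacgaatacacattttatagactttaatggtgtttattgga
CG1607, summit of the last start, chr3R:31384185-31384285, plus strand: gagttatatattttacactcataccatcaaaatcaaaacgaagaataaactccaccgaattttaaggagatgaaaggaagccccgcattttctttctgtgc

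The starts of each gene were numbered in the direction of transcription, after TSSs at most 1000 bp apart had been joined into 1 start. Of the 570 member peaks, 288 were assigned to the first start of their gene, 79 to an internal start and 165 to the last start. The remaining 38 lay at genes whose starts form a chain that joins into 1. The member genes had 1 joined start in 26 cases, 2 starts in 280, 3 in 77, 4 in 30 and at least 5 in 32, up to 16. A single member peak was found at 341 genes, 2 at 89, 3 at 10 and at least 4 at 5. Peaks had a median width of 440 bp (110 to 564), and 54 neighbouring pairs of member peaks overlapped, so the peaks at 1 start are not independent. For 29 members (5.09%), a TSS of another gene also lay within 500 bp of the summit.

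The first start carried a peak more often than any later one. Over the 1616 lone genes with alternative starts, a summit lay within 500 bp of 33.7% of first starts (545 of 1616), 10.6% of internal starts (83 of 785) and 11.4% of last starts (184 of 1616). The background was 32.3% of all 16419 protein-coding starts, so the first start stood near it and the later starts below it. The 95% Wilson intervals were 31.5 to 36.1% for first starts, 8.61 to 12.9% for internal starts and 9.93 to 13.03% for last starts. They cover counting error only and take the starts as independent.

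The same order was found in each replicate when its 5558 strongest regions were used. First starts had a region in 34.8, 34.0 and 31.1% of cases in replicates 1, 2 and 3, against 11.1, 11.3 and 11.7% of last starts. The difference was 21.9 ± 2.28 percentage points (SD, n = 3), with p = 0.25 in a two-sided exact permutation of signs, the smallest value that 3 replicates allow. This design cannot reach 0.05, and the spread and the p measure only the variation between these 3 libraries. Last minus internal starts was 0.20 ± 0.52 points (SD, n = 3, exact permutation p = 0.5).

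A large part of the first-start share came from starts near a head-to-head pair, that is, with a TSS within 500 bp of a TSS of a pair. A gene was kept among the 1616 unless all of its starts lay near a pair. Of the 545 first starts with a summit, 294 were near a pair. Among starts near a pair, 64.1% of the 459 first starts and 46.2% of the 78 last starts had a summit within 500 bp. With the 1074 genes none of whose starts lies near a pair, the shares were 22.2% of first starts (238), 9.60% of 531 internal starts and 9.31% of last starts (100). The first minus last difference was then 12.8 points, and 12.7 ± 1.83 points over replicates (SD, n = 3, exact permutation p = 0.25). Last minus internal was -0.64 ± 0.31 points in these genes, negative in all 3 replicates (SD, n = 3, exact permutation p = 0.25). Single-start genes away from a pair had a peak in 18.8% of 7786 cases, between the first and the later starts of these genes.

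**Figure D1:**
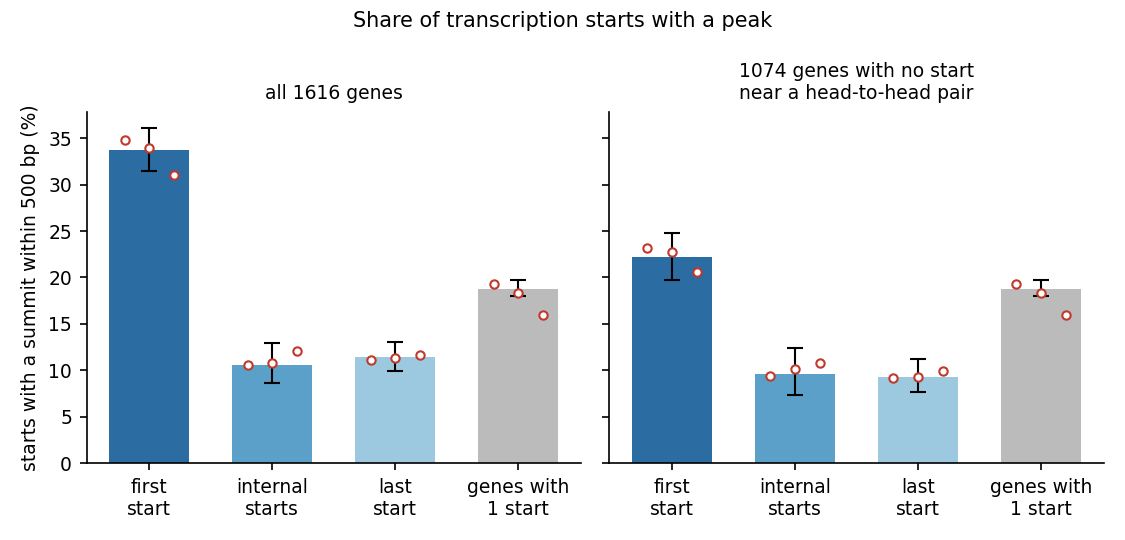
Bars give the percentage of starts with a summit within 500 bp, with 95% Wilson intervals, for first, internal and last starts of genes with alternative starts and for single-start genes away from a head-to-head pair; open circles are replicates 1, 2 and 3 from left to right. In both panels the first start stands above the later starts in every replicate, at 33.7% on the left and 22.2% on the right.

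Among the 1074 genes with no start near a pair, the gap was seen at each span of the gene's starts. Where first and last start were 1000 to 2000 bp apart, 26.8% of first starts and 9.82% of last starts had a peak (224 genes). At 2000 to 5000 bp the shares were 23.6% and 10% (280 genes), and at 5000 to 20000 bp they were 22.9% and 9.92% (363 genes). Beyond 20000 bp they were 14.0% and 6.76% (207 genes), the lowest of the 4 spans for both.

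Genes with exactly 2 starts show most directly which start carries the peak. Of 1156 such genes, 342 had a peak at the first start only, 96 at the last only, 47 at both and 671 at neither. The first start alone was therefore bound in 70.5% of the bound genes, and in 70.3 ± 1.95% over replicates (SD, n = 3). In the 766 genes with no start near a pair, the counts were 156, 52, 22 and 536, or 67.8% first only, 22.6% last only and 9.57% both.

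Genes with 3 or more starts, none near a pair, rarely had more than 1 bound. Of 308 such genes, 199 had no bound start, 86 had 1, 20 had 2 and 3 had at least 3, and 0 had all of their starts bound. Start 1 had a peak in 19.5% of these genes, start 2 in 8.44%, start 3 in 8.77% and the last start in 8.44%, so the step lay between start 1 and start 2.

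Any region at the unbound start was below the threshold by definition, and how often 1 was listed there varied between libraries. Among the 156 first-only genes, the pooled list held a region at both starts in 41, with a median first over last signal of 3.35. Replicates 1, 2 and 3, with 30000, 17251 and 14368 regions, listed both starts in 84, 41 and 22 of these genes. The first start was the stronger in 153, 155 and 140 of the 156 genes in replicates 1, 2 and 3. Among the 52 last-only genes, both starts were listed in 33, 18 and 12, and the last start was the stronger in 47, 50 and 46. These replicate directions follow in part from how the classes were formed, since the peak list was derived from the same libraries. In the pooled list, which holds the peaks themselves, the direction and the ratio above 1 follow from the classes and are no separate result. In the 22 genes with a peak at both starts, the first was the stronger in 12, with a median ratio of 1.08, and in 13, 9 and 13 by replicate, so neither start led.

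**Figure D2:**
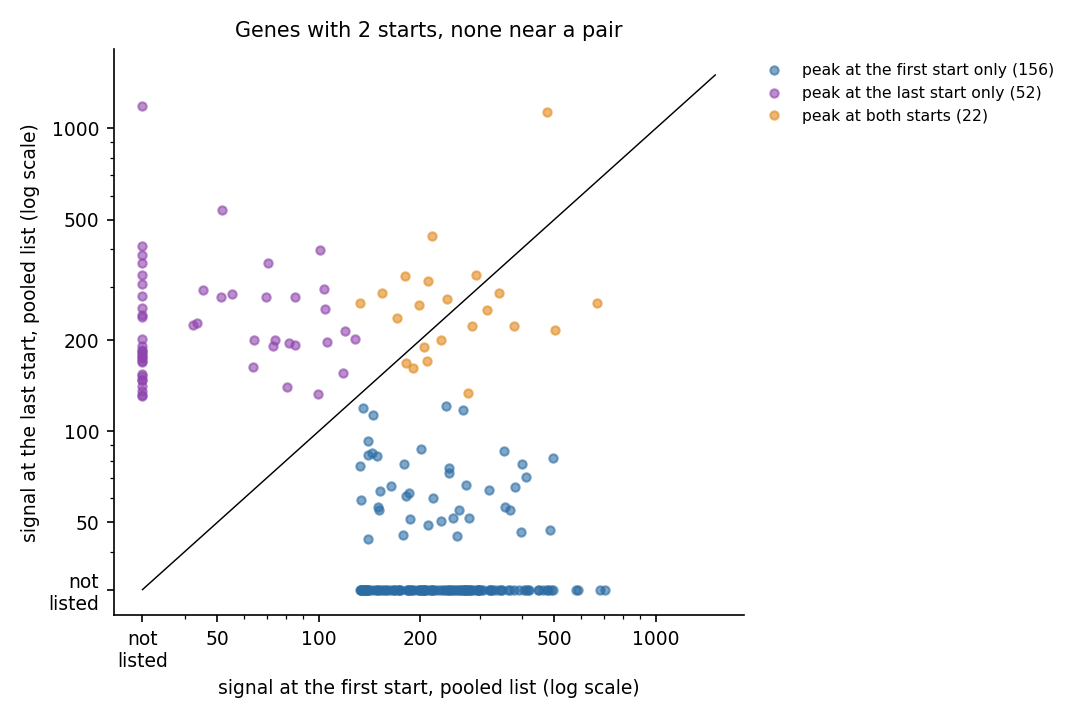
Each point is 1 of 230 genes with 2 starts, none near a head-to-head pair, placed by the signal of the strongest region at the first start (x) and at the last start (y) in the pooled list, both on log scales, with regions not listed drawn at the axis. First-only genes lie below the diagonal and last-only genes above it, which follows from how the classes were formed, since the peaks are regions of this same list. The 22 genes with both lie on either side.

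Below the peak threshold, signal was more common at the other starts of bound genes than at starts of unbound genes. A pooled region under the threshold lay at 33.2% of the 563 unbound starts of member genes (95% Wilson interval 29.4 to 37.2%), against 25.1% of 2020 starts of genes with no peak (23.3 to 27.1%). Starts near a head-to-head pair are not among the 563. For single-start genes without a peak, the share was 17.4%. Within member genes it was 48.0% of 102 unbound first starts and 26.8% of 257 unbound last starts.

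Bound starts also had more annotated transcripts than the unbound starts of the same genes. The mean was 2.75 transcripts at 464 starts with a peak and 1.86 at 563 starts without, and a single transcript began at 31.9% of the starts with a peak and at 58.4% of those without. The order held at first starts (2.95 and 2.33), internal starts (2.53 and 1.78) and last starts (2.53 and 1.74). Starts near a head-to-head pair were left out of both sets. Transcript number comes from the annotation, and expression was not measured here.

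Member peaks did not differ in signal from those of single-start genes beyond the replicate spread. Their median signal was 217, against 228 at single-start genes, a ratio of 0.953. The replicate ratios were 0.905, 0.962 and 1.01 (0.961 ± 0.055, SD, n = 3, exact permutation p = 0.5), so the sign was not the same in all 3. Peaks at first, internal and last starts had medians of 218, 220 and 214. Of the 570 summits, 352 lay in one of the 5558 strongest regions of all 3 replicates, 176 of 2, 41 of 1 and 1 of 0. The share in all 3 was 61.8%, against 62.3% at single-start genes.

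The classes differed in where the summit lay. Member summits had a median position of -41.5 bp from the nearest TSS, where negative is upstream, against 28.5 bp at single-start genes. In member peaks 42.3% of summits lay 100 bp or more upstream, against 13.1% at single-start genes, and the difference was 26.2 ± 2.47 points over replicates (SD, n = 3, exact permutation p = 0.25). Conversely, 35.3% of member summits and 62.8% of single-start summits lay within 100 bp of the TSS.

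This shift belonged mainly to the later starts. The median was 18.5 bp at first starts, -219 bp at internal starts and -144 bp at last starts. The share lying 100 bp or more upstream was 27.4% at first starts, 74.7% at internal starts and 57.6% at last starts. First minus last was -30.1 points in the peak list and -27.9 ± 2.88 points over replicates (SD, n = 3, exact permutation p = 0.25). Replicate 3 placed summits farther upstream in all classes, with a single-start median of -15 bp against 22 and 54.5 bp in replicates 1 and 2. Its member median was -123 bp, against -11 and -39 bp.

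**Figure D3:**
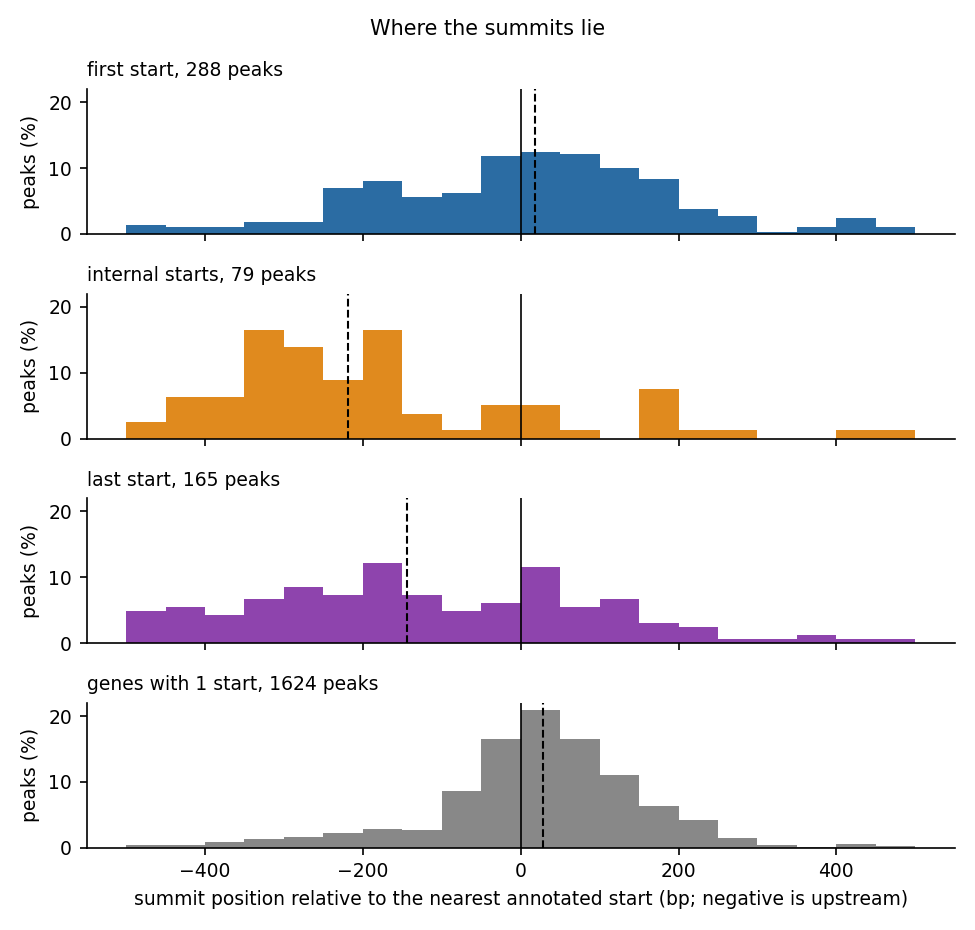
Histograms give the percentage of peaks per 50 bp of summit position relative to the nearest annotated TSS (negative is upstream), with a solid line at the TSS and a dashed line at the median. The medians are 18.5 bp for first starts, -219 bp for internal starts, -144 bp for last starts and 28.5 bp for single-start genes.

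The strongest members, themselves part of the 570, had a similar arrangement. Of the 50 with the highest signal, 24 lay at first starts, 9 at internal starts, 12 at last starts and 5 at genes with joined starts. All 9 internal and all 12 last-start summits were upstream of their TSS, with medians of -224 and -200.5 bp. At the 24 first starts, 10 summits were upstream and the median was 32.5 bp. Over all members, 64 of 79 internal, 111 of 165 last-start and 131 of 288 first-start summits were upstream.

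Promoter motifs differed between bound and unbound starts of the same genes. In the window from 100 bp upstream to 50 bp downstream of any TSS of a start, the DRE was found at 8.84% of 464 bound starts and 1.24% of 563 unbound starts, with a background of 7.11% of all starts. Starts near a head-to-head pair were left out of the bound and unbound starts, but not out of the background. The Motif 1 core was at 7.54% and 1.24% (background 4.95%), and Ohler motif 7 at 19.2% and 4.97% (background 14.4%). The bound minus unbound differences over replicates were 6.64 ± 1.67 points for the DRE, 5.74 ± 1.71 for the Motif 1 core and 13.2 ± 0.85 for Ohler motif 7 (SD, n = 3). Both strands were searched, and none of the letters of the motifs marked in the sequences contains another of them. Bound starts had more TSSs on average (1.28 against 1.16), so more sequence was searched at them. A check with 1 TSS per start was run for the DRE only. A match describes letters in the window and is not evidence of binding by the named factor.

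At least 1 of these 3 motifs stood at 30.4% of bound starts (95% Wilson interval 26.4 to 34.7%) and 6.93% of unbound starts (5.11 to 9.33%). The background was 22.9% of all 16419 protein-coding starts. At first starts the shares were 38.8% of 245 bound and 13.7% of 102 unbound. At internal starts they were 18.1% of 72 and 5.88% of 204, and at last starts 22.4% of 147 and 5.06% of 257. Bound first starts thus stood above this background, and bound internal and last starts did not. The background includes starts near a head-to-head pair, which the bound and unbound starts counted here leave out. The sets are therefore unlike, and a share over all starts away from a pair was not counted. Single-start genes away from a pair had 48.2% when bound and 9.14% when not. The DRE was at 13.1% of bound first starts and 6.12% of bound last starts, and at 0 of 72 bound internal starts, which allows a share of up to 4.17%. Of the 35 bound starts with a Motif 1 core, 30 were first starts. The core was at 12.2% of bound and 4.90% of unbound first starts. At internal starts the shares were 4.17% and 0.49%, and at last starts 1.36% and 0.39%. Its 95% Wilson intervals for bound and unbound starts overlap at each position.

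Of the other elements searched, the E-box also was more frequent at bound starts over all positions together. The E-box was at 17.0% of bound and 8.88% of unbound starts (background 13.4%), 6.78 ± 1.81 points over replicates (SD, n = 3). The initiator letters TCAGTT were at 19.6% of bound and 26.1% of unbound starts (background 21.3%), -6.13 ± 1.84 points, with 15.9% and 24.5% at first, 29.2% and 26.5% at internal and 21.1% and 26.5% at last starts. Bound starts included more first starts (245 of 464) than unbound starts did (102 of 563), so the shares over all positions also carry that mix. The E-box was at 15.1% and 10.8% of first, 16.7% and 9.31% of internal and 20.4% and 7.78% of last starts. Its 95% Wilson intervals overlap at first and at internal starts, and do not at last starts (14.7 to 27.6% and 5.09 to 11.7%). The TATA box (TATAAA) was at 11.9% and 13.1% (background 24.7%), and GAGA repeats (GAGAG) at 38.6% and 36.2% (background 22.7%), with differences of -1.28 ± 1.16 and 3.56 ± 4.66 points over replicates (SD, n = 3). The near-equal GAGA shares over all positions combined differences of opposite sign at first and at later starts. GAGA repeats were at 32.7% (95% Wilson interval 27.1 to 38.8%) of bound and 44.1% (34.9 to 53.8%) of unbound first starts. At internal starts they were at 45.8% (34.8 to 57.3%) and 39.2% (32.8 to 46.1%). At last starts they were at 44.9% (37.1 to 53.0%) of bound and 30.7% (25.4 to 36.6%) of unbound starts. The intervals overlap at first and at internal starts, and do not at last starts. Ohler motif 6, the Zelda letters CAGGTA and the TCT initiator CTCTTTCC were each at under 3% of bound starts, at 1.08, 2.59 and 2.16%, against 0.36, 2.13 and 1.07% of unbound starts (background 1.55, 3.65 and 0.609%).

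**Figure D4:**
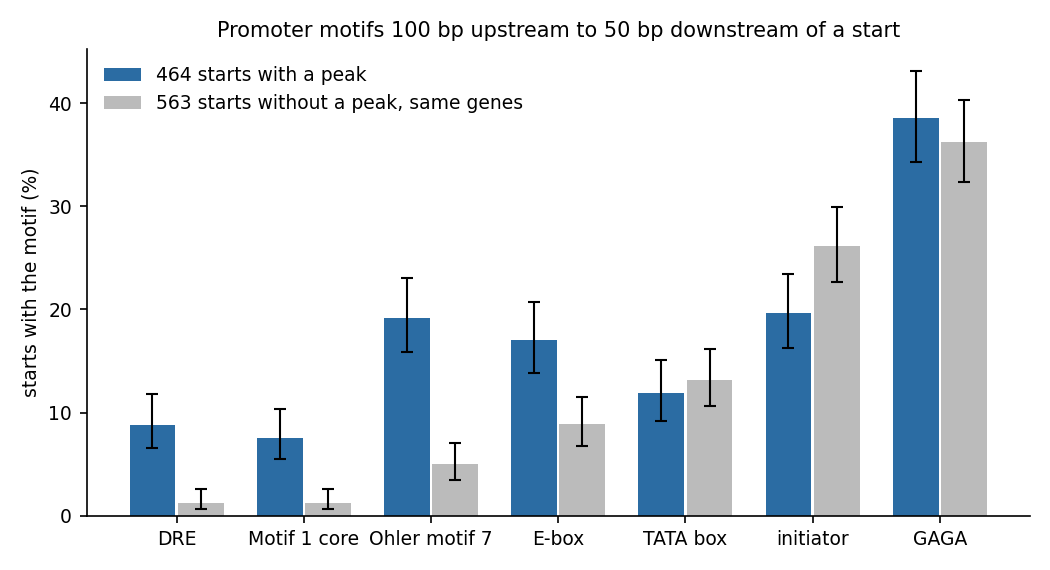
Bars give the percentage of starts with each motif, with 95% Wilson intervals, at the 464 starts with a peak (blue, left) and at the 563 starts without one in the same genes (grey, right). Over all positions together, the DRE, the Motif 1 core, Ohler motif 7 and the E-box are more frequent at bound starts, and the initiator at unbound ones.

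Around the summits themselves, motif content and base composition went with position. Within 100 bp of the summit, at least 1 of the DRE, Motif 1 core and Ohler motif 7 was found at 26.7% of first-start peaks, 12.7% of internal and 17.6% of last-start peaks, against 33.7% at single-start genes and 6.43% away from promoters. Member peaks within 100 bp of a TSS had 40.3%, those more than 100 bp upstream 13.4% and those more than 100 bp downstream 7.69%. The GC content of the same windows averaged 40.5% at first-start, 35.8% at internal and 37.8% at last-start peaks, against 41.4% at single-start genes and 35.9% away from promoters. Their part in each other was not tested.

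Single genes show these patterns with their values in each library, where a region counts as listed at a start when its own summit lies within 500 bp. The strongest member was at px (plexus, a gene of wing vein patterning), with its summit 211 bp upstream of the last start, 47966 bp from the first start (peak at chr2R:22514137-22514482). Its signal was 1442 in the pooled list and 495, 505 and 432 in replicates 1, 2 and 3. The px first start, near a head-to-head pair, had a peak of signal 284 (129, 100.1 and 44.4), so the last start was the higher in all 3 libraries. At CG1888 the last start had 1181 in the pooled list and 389, 518 and 282 by replicate, while the first start, 1177 bp away, was listed in replicate 1 only, at 37.3.

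The peak near the last start of ph-p, which encodes the Polycomb group protein Polyhomeotic, had a signal of 1132 (270, 478 and 447 by replicate). Its summit lay 475 bp upstream of that start, close to the 500 bp limit, and it is among the sequences shown. The ph-p first start, 1516 bp away, had a peak of signal 475, with 146, 208 and 162 by replicate, lower in all 3. At larp, which encodes a La-related RNA-binding protein, the last start had 1027 (305, 449 and 259) and the first start 243 (97.0, 87.1 and 69.9), while the pair of starts between them had no peak. At gish, which encodes a casein kinase 1, the internal start had 903 (289, 342 and 252) and the last start had no listed region.

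Some genes had their strong peak at the first start alone. At csw, which encodes the Corkscrew tyrosine phosphatase, the first start had 811 (362, 293 and 172), with its summit 14 bp downstream, and its 2 later starts had no listed region in any library. At Pi3K21B, the adaptor subunit of a phosphoinositide 3-kinase, the first start had 580 (250, 246 and 115), and the last had none. At moody, a G protein-coupled receptor of the blood-brain barrier, the first start had 589 (185, 254 and 147), with its summit 163 bp upstream. At CG13921 it had 706 (209, 261 and 219), 132 bp upstream. Fkbp14, an FKBP-family isomerase, had 884 (285, 328 and 257) at a first start that, as a group of TSSs, also lies near a pair. Sox14, an HMG-box transcription factor, had 803 (219, 353 and 252) at starts that join into 1.

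Last-only peaks were found at MFS10, a transporter of the major facilitator superfamily, with 781 (249, 334 and 198), and at chn, the zinc-finger factor Charlatan, with 537 (137, 248 and 161). The chn first start, 13590 bp away, had 51.6 in the pooled list, below the threshold. CG1607 had 409 (119, 181 and 120) at its last start and no listed region at its first. Both starts were bound at Pak, the p21-activated kinase, with 502 at the first and 216 at the last. At aru, an Eps8-related adaptor, the first start had 217 and the last 440, and at brwl they had 669 and 264.

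The genes with most bound starts were Ptpmeg2 and Rtnl1, with 4 each. At Ptpmeg2, a protein tyrosine phosphatase, starts 1 to 4 of 5 had signals of 181, 408, 433 and 312, and the last start, at 98.4, was below the threshold. The summits of starts 2, 3 and 4 lay 176, 171 and 186 bp upstream, and that of the first start 160 bp downstream. At Rtnl1, a reticulon that shapes the endoplasmic reticulum, starts 1, 3, 4 and 5 of 6 had 337, 321, 183 and 780. At start 5 the replicates had 228, 330 and 232, and at start 1 they had 166, 128 and 46.7, so start 5 was the higher in all 3. At spi, which encodes the EGF receptor ligand Spitz, the internal start had 368 and the last 168, and the first start, near a pair, had a region of 129 that is also a peak. At mtd (mustard), 3 internal starts of 9 had 165, 228 and 220.

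**Figure D5:**
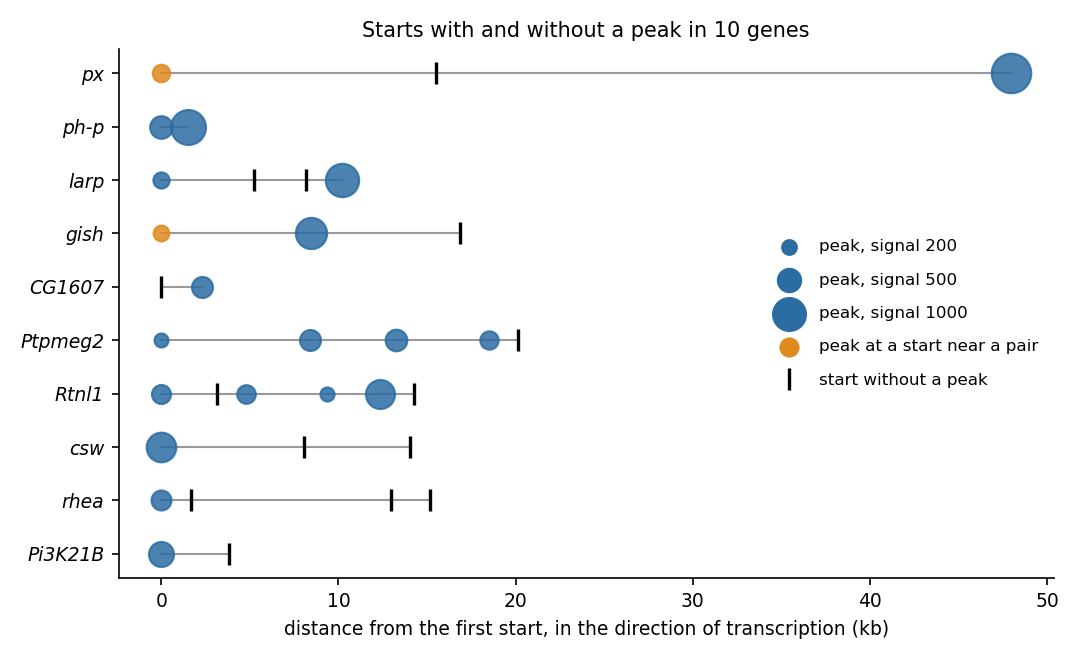
Each row is 1 gene from those named in the text, with its starts placed by distance from the first start in the direction of transcription (kb). Circles are starts with a peak, sized by the signal in the pooled list, orange where the start is near a head-to-head pair, and bars are starts without one; px, larp and gish have their largest circle at a later start, while csw, rhea and Pi3K21B have a circle at the first start only.

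Gene lists of 8 functional groups were counted against the background of 25.7%, the share of the 1616 lone genes with alternative starts that had a member peak. Kinases and small GTPases had 9 of 17 genes with one and chromatin and insulator genes 3 of 5. The counts were 5 of 13 for neuronal and ion channel genes, 7 of 19 for RNA-binding proteins, 5 of 14 for cytoskeleton and adhesion and 3 of 9 for BTB zinc-finger factors. The ecdysone and juvenile hormone list had 2 of 13 and the Hox and segmentation list 0 of 8, which allows a share of up to 37.5%. The lists are small, and these counts are a description.

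Among the kinases, Src42A, a Src-family tyrosine kinase, had 488 (207, 198 and 80.6) at its first start and none in the pooled list at its last. The gene sgg, the fly glycogen synthase kinase 3, had 226 at the first of its 8 starts and 383 at the sixth. CaMKII, the calcium/calmodulin-dependent kinase, had 294 (113, 111 and 74.8) at its last start, while its first start had 103, below the threshold. Egfr and InR, receptor tyrosine kinases, had no peak at any start. In the chromatin list, Utx, a histone H3 lysine 27 demethylase, had 230 at the first start and 200 at the last, and Trl, the GAGA factor, had 224 at its last start only.

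In the RNA-binding list, elav, a neuronal splicing regulator, had 477 (133, 194 and 155) at its first start, with the summit 284 bp upstream, and msi (Musashi) had 388 at its first start. Sxl, the switch gene of sex determination, had 3 member peaks at its first start, the strongest at 261 with its summit 361 bp downstream, and none at its last. The splicing regulator mbl (Muscleblind) had 191 at an internal start, 219 bp upstream, and Rbp6 and Rbp9 had no peak. Among BTB factors, lola had 235 at an internal start and psq (Pipsqueak) 177 at its first, and ab and br had none.

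Among cytoskeletal genes, Msp300, a nesprin of muscle nuclei, had 489 (142, 192 and 151) at an internal start, and rhea, the talin gene, had 369 (179, 125 and 92.9) at its first start, whose DRE is shown above. Tm1, a tropomyosin, had 312 at an internal start, beside a peak at its first start. At jar, myosin VI, the last start had 239, with its summit 480 bp upstream. The region of replicate 3 there covers this summit, but its own summit lies beyond 500 bp. Act5C and Tm2 had no peak. In the neuronal list, dnc, the cAMP phosphodiesterase Dunce, had 336 and 436 at 2 of its 8 starts, both internal, with summits 331 and 274 bp upstream. The cGMP-dependent kinase gene for had 337 at the last of its 4 starts, dlg1, the Discs large scaffold, 230 at the last of its 5, and Cadps, a regulator of vesicle release, 162 at its last, beside a peak of 319 at its first start, which is near a pair. Ca-alpha1D and Sh had none. In the hormone list, Eip75B, a nuclear receptor of the ecdysone response, had 329 (123, 87.2 and 113) at start 5 of 7 alone, and Eip63E, a cyclin-dependent kinase relative, had 377 at its first start. EcR and Eip74EF had no peak at any start, nor did Abd-B and Antp of the Hox list.

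Member genes were spread over the chromosome arms. They made up 28.0% of the lone genes with alternative starts on 2L, 24.7% on 2R, 25.9% on 3L, 23.9% on 3R and 25.5% on X. On chromosome 4 they were 9 of 20 genes (45.0%). At the limits of the rule, the member summit farthest from a TSS was that of Pino at 491 bp, with a signal of 194, and the nearest left out was that of wcy at 502 bp, with 147. The smallest span of starts among member genes was 1009 bp, at Hrs (signal 499), and the largest left out was 994 bp, at CG15784 (signal 143).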

How the data were processed

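Anti-GFP ChIP-seq of 3 replicates of 1 group was analysed from the deposited dm6 lists. Per the listing text among the deposited files, the authors derived a list of peaks and background regions from each library and 1 control, a pooled list, and a thresholded list by irreproducible discovery rate from these. The signal of each region, and the summit offset, are the authors' deposited values. Not given in the sources used here were the aligner, the peak caller, the threshold and the scale of the signal, and depth is unknown. The lists in dm3 were not used here, and 1 summit sequence is not reported here.

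TSSs came from Ensembl release 115 (BDGP6.54), and sequence from RefSeq, Release 6. TSSs of a gene at most 1000 bp apart were joined into 1 start, and a start was bound when a summit lay within 500 bp of any of its TSSs. Each replicate was read as its 5558 strongest regions. Shares have 95% Wilson intervals, and differences over the 3 replicates a two-sided exact sign permutation. The limit for a count of 0 is 3 counts. A region of a replicate or of the pooled list with its summit within 500 bp of a start, whatever its rank, gave the signal quoted for single starts. The scripts were tested on simulated data with planted summits and motifs, in Python 3.11.15 with pandas 2.3.3 and numpy 2.4.6.

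The genes named are those of the 10 strongest members, the 4 strongest in each class of genes with 2 starts, the 4 with most bound starts, up to 4 bound and 2 unbound genes of each list, and those at the limits of the rule. Members, lists, motifs and tests were chosen with earlier results of these data known. The alternatives tried changed the window, the joining of starts, the transcripts, genes and peaks used, the replicates required to support a peak, and the motif window.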

Additional observations from a re-analysis of the deposited data

How the results depend on the processing

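No paired analysis was possible because all samples belong to 1 group. Of 77 values from 7 results under 13 alternatives, 45 stayed within the replicate spread, within 1.5 times for the number of member peaks, or, for the 2 tested results, on the same side, 30 moved and 2 changed direction. Some of the 45 were fixed in advance. Using only TSSs of protein-coding transcripts left all 7 results as they were, because 0 transcripts were of another type. Joining starts otherwise could not change the number of member peaks or the signal ratio, since neither uses joined starts. The first start exceeded the last in each alternative run for it, while both motif alternatives were run for the DRE difference only.

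The share of first starts with a peak was 28.5% with a window of 250 bp, 39.1% with 1000 bp and 31.1% with starts joined up to 2000 bp. It was 18.9% with the stronger 2779 peaks, 22.9% with summits found in all 3 replicates and 22.2% for genes with no start near a pair. Without 1 replicate it was 24.2 to 28.6%. Without 1 replicate here means that the summit had to lie in the strongest regions of the other 2. The peaks and summits still came from the list derived from all 3 libraries, so no library was left out of it. The share of last starts was 8.34, 14.1, 11.98, 6.31, 7.43 and 9.31% under the same alternatives in that order, and 8.11 to 8.85% without 1 replicate. It was 11.1% with starts joined up to 500 bp, where each summit was also given only to the nearest start of a gene. First minus last was 15.7 to 19.7 points without 1 replicate. In bound genes with 2 starts, first only was 66.4% with 1000 bp, 67.5% with joining up to 2000 bp, 72.6% with the stronger peaks, 72.5% with all 3 replicates, 67.8% with no start near a pair, and 70.2 to 72.7% without 1 replicate. Member peaks numbered 280 with the stronger peaks, 352 with all 3 replicates, and 374 without replicate 2, up to 438. The DRE difference was 10.1 points with 250 bp, 5.04 points with joining up to 2000 bp, 7.38 points with 1 TSS per start, and 6.16 to 7.98 points without 1 replicate. The signal ratio to single-start genes was 1.03 with the stronger peaks and 0.939 to 1.00 without 1 replicate, passing 1 without replicate 3. The cause was not tested. Replicate alternatives and the stronger peaks use fewer peaks by construction. Unknown depth limits what the starts without a peak can show.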
